A study of Mus musculus with 25 samples.

Results

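The recovery of mouse colon labelled wild type (WT) after chemical colitis was measured as day 12 against day 7, in 10 of the 25 arrays of the series, chosen by the day and genotype in their titles. The WT day 12 group holds 5 female C57BL/6j mice, 8 weeks old, that drank 2% (w/v) dextran sulfate sodium (DSS) for 7 days and then plain water for 5 days. The WT day 7 group holds 5 such mice killed at the end of the 7 days of DSS. Levels at day 0 come from 3 untreated WT mice, and the same interval in female mice labelled Card9-/-, also C57BL/6j, from 5 arrays at day 12 and 4 at day 7, with the same DSS and water. Each array carries RNA of a colon sample from 1 mouse, so a fall in a gene's signal through fewer cells of a type and one through less RNA per cell cannot be told apart. All 25500 genes with a probe bright enough to use were tested, and none was selected by its change.

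The Card9 probe goes against the genotype labels, so WT and Card9-/- stand throughout for arrays so labelled. Its relative log2 signal (log2 processed signal minus the array's 75th percentile) was -0.94 ± 0.25 at day 12 (n = 5) and -0.58 ± 0.10 at day 7 (n = 4) in arrays labelled Card9-/-, against -5.74 ± 1.60 and -5.43 ± 0.75 (SD, n = 5 each) in arrays labelled WT. In the WT arrays it was well above background on 1 of 5 at day 12 and on 1 of 5 at day 7. Whether the probe lies outside the deleted part or the labels are crossed cannot be told apart here. If they are crossed, every value called WT belongs to the other genotype, and each genotype difference has the opposite sign.

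DSS is a polymer that strips and inflames the colon epithelium, and when it is withdrawn the epithelium regrows from the crypts while mucus-secreting goblet cells and absorptive colonocytes are restored. Acute phase proteins such as LBP, which carries bacterial lipopolysaccharide to its receptor, are made in response to inflammatory cytokines and decline as inflammation ends. Mucosal mast cells, which settle in the gut epithelium, store the chymase-like proteases MCPT1 and MCPT2. Colon cells also keep time, through a loop in which BMAL1 (gene Arntl) and CLOCK bind E-box sequences of their own repressors (Per, Cry, Nr1d1, Nr1d2) and of the output factors Dbp and Tef, while the REV-ERB proteins made by Nr1d1 and Nr1d2 repress Arntl.

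All values are relative log2 signals of the kind given for Card9, and a change is the day 12 mean minus the day 7 mean. The 75th percentile itself lay between 394 and 616 intensity units at day 12 and between 215 and 658 at day 7. The 12 epithelial markers of colon, among them Cdx1, Krt20, Muc2 and Lgals4, were all well above background in all 10 arrays, with list means of 6.76 to 6.98 at day 12 and 6.52 to 7.02 at day 7. A few arrays stood apart. Replicate 5 of day 12 had a pancreas acinar list mean of 3.72, against -4.34 to -1.56 in the other day 12 arrays, and 67.1% of its probes were well above background, against 48.8% to 51.1%. Replicate 1 of day 7 had a mean over proximal colon Hox genes of -0.20, against -2.81 to -1.71 in the other day 7 arrays, with the highest means of adipose (3.13) and smooth muscle (3.48) genes of the 10 arrays. Its mean over distal colon Hox genes was also the highest of the 10, at 0.055, against -2.82 to -1.24 in the other day 7 arrays. Replicate 4 of day 12 had a proximal Hox mean of -0.73, against -2.60 to -2.03 in the other day 12 arrays. Replicate 5 of day 7 had the lowest smooth muscle mean, 0.83, and the highest mean of squamous epithelium genes, -0.58, of the 10. It also had the lowest 75th percentile, 215, and the lowest mean correlation with arrays of its own group, 0.934. Of its probes 60.7% were well above background, against 47.8% to 54.0% in the other day 7 arrays.

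At an adjusted p under 0.05, 124 genes differed between day 12 and day 7, 0.486% of those tested. Of these, 93 were higher at day 12 (0.365%) and 31 lower (0.122%). The rises were the smaller changes, with a median of 0.65 and 24 of 93 above 1, while the falls had a median of -1.33 and 26 of 31 exceeded 1 in size. The median change of all genes was 0.0097, and 51.4% of all genes had a positive one. Values at day 12 and day 7 did not overlap for 113 of the 124 genes and for 3.47% of all genes. The count rests on the spread estimated over all 25 arrays. A fit of the 10 arrays alone called 0 genes with limma, with 2574 at an unadjusted p under 0.05, against 3344 in the fit of 25 arrays, and a fit of the 13 WT arrays called 19. Leaving out day 12 replicate 1, 2, 3, 4 or 5 gave 28, 75, 36, 33 and 75 calls in turn, and leaving out day 7 replicate 1 or 3 gave 227 or 74.

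**Figure D1:**
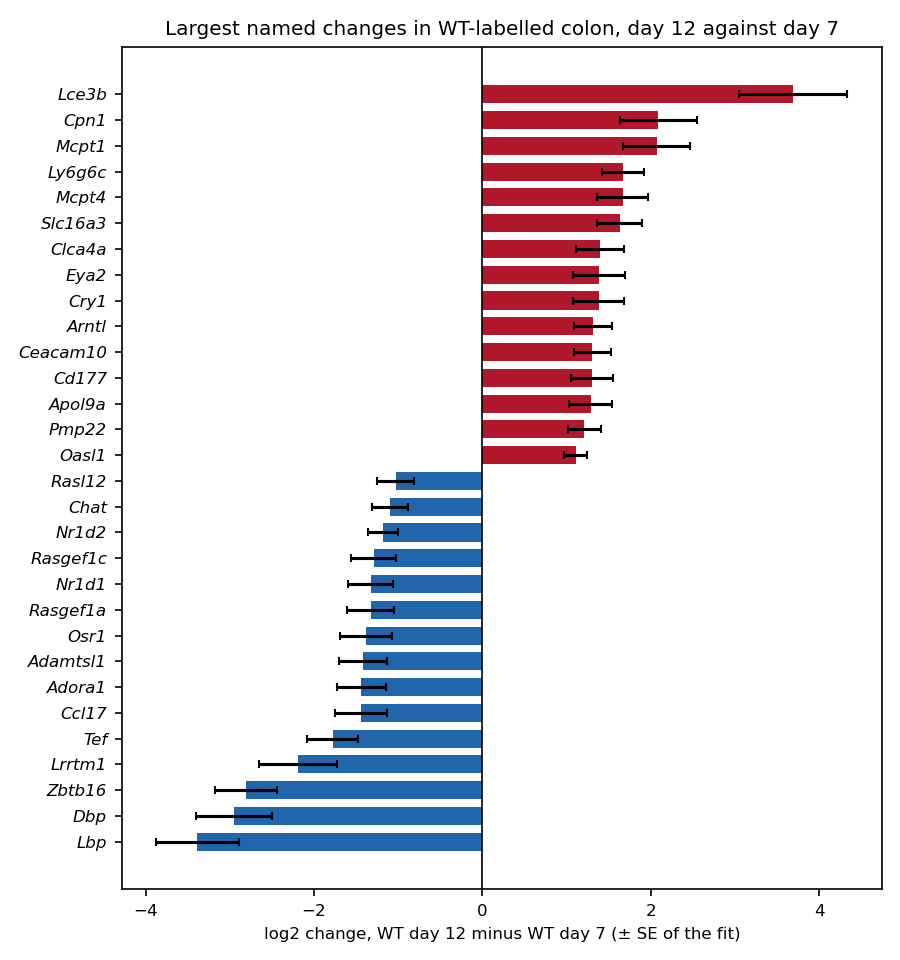
Log2 change of the 15 largest rises and 15 largest falls among called genes that have a gene symbol, do not overlap between days and, on 1 day or both, exceed background in all 5 arrays, WT day 12 minus WT day 7 (n = 5 arrays each). Bars are the fitted change and whiskers its SE. Lce3b had the largest rise shown (3.69) and Lbp the largest fall (-3.38).

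The acute phase protein LBP gave the largest fall. The relative log2 signals of Lbp were -2.38, -1.09, -2.03, -2.35 and -1.48 at day 12, against -0.13, 2.47, 2.67, 0.68 and 1.91 at day 7. Every day 12 array lay below every day 7 array. The level was 10.4-fold lower at day 12 (log2 change -3.38 ± 0.49 (SE), adjusted p = 0.00672), and within the slides the change ran between -4.28 and -1.62. At day 0 Lbp averaged -2.49 ± 0.32 (SD, n = 3), and the day 12 mean of -1.87 ± 0.56 differed from it by 0.62 ± 0.56 (SE, adjusted p = 0.723). The Lbp probe lies on chromosome 2, between positions 158154142 and 158157684 of the mm9 build.

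Lbp was the 1 called gene of the 19 tested acute phase and complement genes, where 0.122% of all genes were called lower. All 19 had negative changes, with a median of -0.91, while 51.4% of all genes had positive ones. At an unadjusted p under 0.05, 10 were lower, against 4.38% of all genes. Haptoglobin (Hp), which binds free haemoglobin, had -2.77 ± 0.85, but its arrays ranged from 0.31 to 2.63 at day 12 and from 1.98 to 5.85 at day 7 and the adjusted p was 0.145. The central complement component C3 had -1.02 ± 0.29 (adjusted p = 0.113). The serum amyloid genes Saa1 and Saa2, which are near-identical copies and were bright in every array, had -0.14 ± 0.31 and -0.13 ± 0.30.

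Ccl17, a chemokine that draws T cells bearing CCR4, was the called gene among 22 inflammatory cytokine and chemokine genes, where 0.122% of all genes were called lower. Its signals were -3.31, -3.17, -3.82, -3.59 and -3.36 at day 12, against -2.02, -2.45, -1.73, -2.51 and -1.35 at day 7. The day 12 arrays all lay below the day 7 arrays (-1.44 ± 0.31, adjusted p = 0.0382). At day 0 it averaged -3.37. The call was lost in 14 of 22 other settings, among them without any 1 of the 5 day 12 arrays or without day 7 replicate 3 or 5 (adjusted p = 0.0548 to 0.102), and the change was -0.78 with normexp background correction. In the whole list 20 of 22 members had negative changes, with a median of -1.22, while 51.4% of all genes had positive ones. At an unadjusted p under 0.05, 8 were lower, against 4.38% of all genes. The monocyte chemokine Ccl2 had -2.08 ± 0.71 and the neutrophil chemokine Cxcl1 -2.03 ± 0.58, with adjusted p of 0.194 and 0.121. The day 7 arrays of Ccl2 were the more spread, between -1.70 and 3.62, with day 12 between -2.13 and -0.52, and the days overlapped for both genes.

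None of the 19 neutrophil genes or 19 matrix protease and inhibitor genes was called, with medians of -0.44 and -0.86. Mmp3, which cuts collagen and proteoglycan, had the largest negative change among the proteases, -2.84 ± 0.77 (adjusted p = 0.102). Its mean was -1.26 ± 0.75 at day 12 and 1.58 ± 1.86 at day 7 (SD, n = 5 each). Among the 18 macrophage genes the median was -0.44 and none was called. Arg1, the arginine-degrading enzyme of alternatively activated macrophages, had a positive change where 16 of the 18 were negative, 2.12 ± 0.59 (adjusted p = 0.112). Its arrays did not overlap, between -2.53 and -0.48 at day 12 and between -5.90 and -2.91 at day 7. The day 7 low is under -4.96, the lowest signal well above background in any day 7 array. The size of the change depends on the setting, from 0.89 to 2.48 over 22 other settings.

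**Figure D2:**
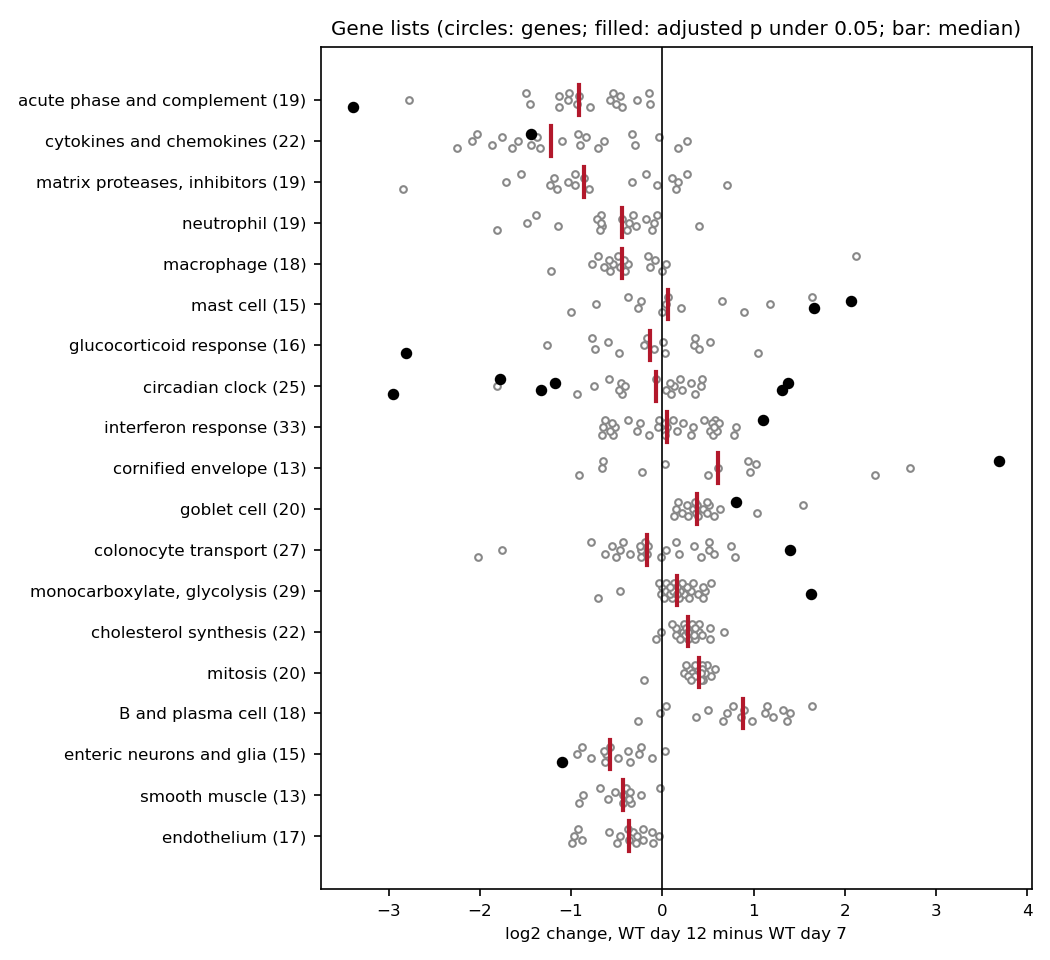
Log2 change, WT day 12 minus WT day 7, of every tested member of 19 gene lists (number tested in parentheses). Circles are genes, filled where the adjusted p was under 0.05, and red bars are list medians, from -1.22 for cytokines and chemokines to 0.88 for B and plasma cell genes.

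The mast cell proteases Mcpt1 and Mcpt4 were higher at day 12. Mcpt1 had signals of 1.21, 1.24, 1.41, 1.70 and 1.47 at day 12, against -2.22, -0.71, -0.19, -0.06 and -0.15 at day 7. The 5 day 12 values lay close together above all the day 7 values, and Mcpt1, probed at mm9 chromosome 14, 56638928 to 56638987, was 4.20-fold higher (2.07 ± 0.40, adjusted p = 0.0258). Mcpt4, a chymase of connective tissue mast cells, had 1.49, 1.44, 1.65, 1.88 and 1.73 at day 12, against -0.55, -0.37, 0.20, 0.33 and 0.25 at day 7. Its arrays did not overlap either, and it was 3.17-fold higher (1.67 ± 0.30, adjusted p = 0.0166). Mcpt2, the other mucosal protease, was higher in all day 12 arrays too, at 0.44 ± 0.29 against -1.21 ± 1.09 (SD, n = 5 each), but was not called (1.64 ± 0.43, adjusted p = 0.0914). All 3 genes were above their untreated level at day 12. At day 0 the means were -2.35 for Mcpt1, -1.92 for Mcpt4 and -3.38 for Mcpt2, and day 12 minus day 0 was 3.76 ± 0.46, 3.56 ± 0.35 and 3.82 ± 0.50 (largest adjusted p = 0.000171), in a comparison that called 1.73% of all genes. Mcpt1, Mcpt2 and Mcpt4 are similar copies on chromosome 14, and cross-hybridisation between their probes was not tested.

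Of the 15 tested mast cell genes, 2 were called, both higher, where 0.365% of all genes were called higher. At an unadjusted p under 0.05, 6 were higher, against 8.73% of all genes, but the median was 0.06 and 6 had negative changes. Cpa3, the carboxypeptidase of mast cell granules, had 0.06 ± 0.59, the tryptase Tpsb2 -0.27 ± 0.20 and the transcription factor Gata2 -0.00 ± 0.37. The growth factor receptor Kit had 0.66 ± 0.20 (adjusted p = 0.134), and Kit also marks the pacemaker cells of gut muscle. The Mcpt1 call was lost without day 12 replicate 1, 3 or 4 (adjusted p = 0.062, 0.0617 and 0.072), and the Mcpt4 call without day 12 replicate 4 (0.056). Without day 12 replicate 5 and day 7 replicate 1, Mcpt1 had 1.67 and Mcpt4 1.51, each with an adjusted p of 0.0542.

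**Figure D3:**
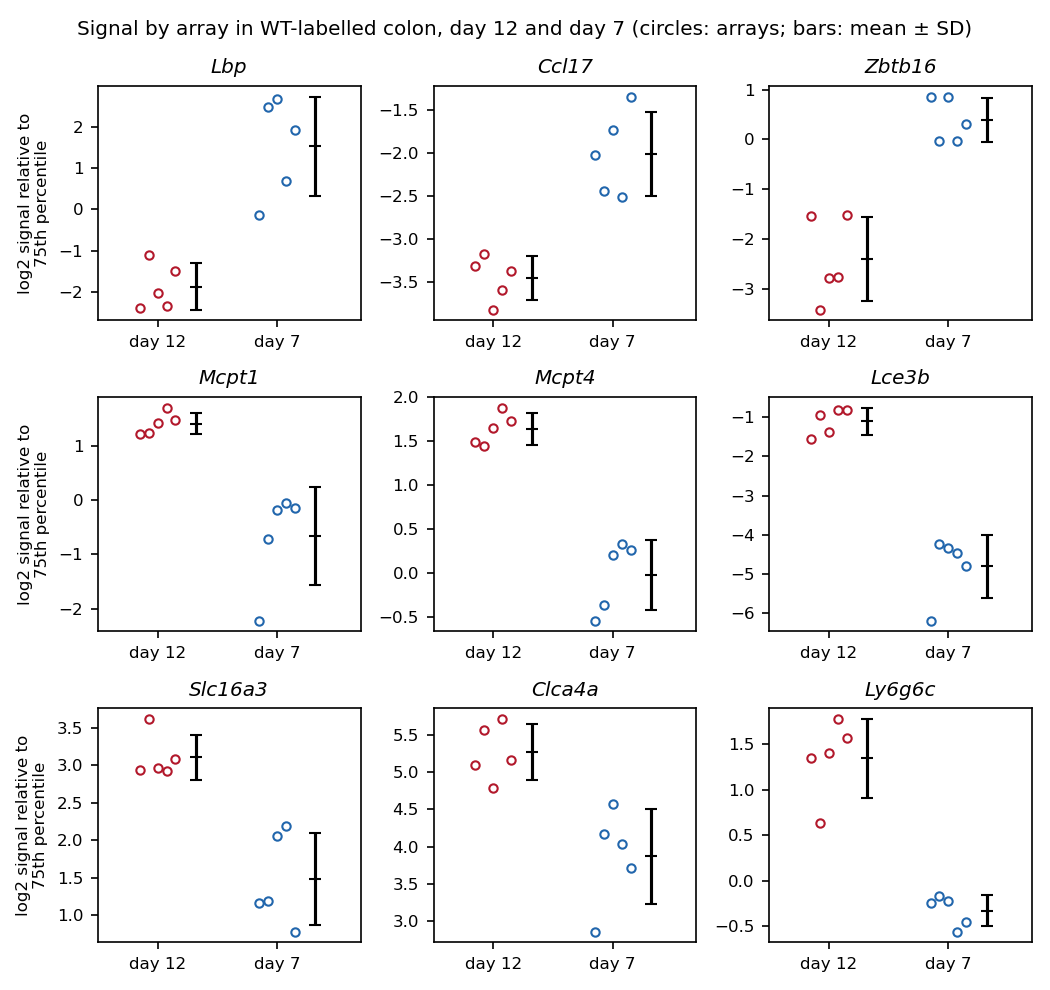
Relative log2 signal (log2 processed signal minus the array's 75th percentile) of 9 genes in each of the 5 WT day 12 and 5 WT day 7 arrays. Circles are arrays and the bars beside them mean ± SD. The 9 genes were drawn from the largest called changes, for which no overlap between days was a condition of choice. Mcpt1 at day 12 lies between 1.21 and 1.70.

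Of the 25 clock genes tested, 6 were called, 2 higher and 4 lower at day 12, where 0.486% of all genes were called, 0.365% higher and 0.122% lower. The output factor Dbp had signals of 0.63, 1.37, -0.42, 0.71 and 0.26 at day 12, against 3.1, 3.65, 2.65, 3.59 and 4.32 at day 7. Every day 12 array was below every day 7 array, and the level was 7.75-fold lower (-2.95 ± 0.45, adjusted p = 0.00672). A second Dbp probe gave -2.48, and the first lies at mm9 chromosome 7, 52965322 to 52965381. Tef, which belongs to the same family of PAR bZIP factors, had 2.47, 3.02, 1.71, 2.68 and 2.03 at day 12, against 4.21, 4.06, 3.58, 4.55 and 4.41 at day 7. These groups did not overlap (-1.78 ± 0.30, adjusted p = 0.0107).

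The REV-ERB genes fell as well. Nr1d2 had 0.38, 0.85, 0.18, 0.74 and 0.39 at day 12, against 1.70, 1.63, 1.39, 1.96 and 1.76 at day 7, with no overlap (-1.18 ± 0.18, adjusted p = 0.00672). Nr1d1 had -0.20, -0.31, -1.33, -1.25 and -0.73 at day 12, against 0.92, 1.03, 0.02, 0.14 and 0.70 at day 7, again with no overlap (-1.33 ± 0.27, adjusted p = 0.0304). The Nr1d1 call was lost without day 12 replicate 3, 4 or 5 or day 7 replicate 2 (adjusted p = 0.0542 to 0.0949).

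Arntl, the activator of the loop, and the repressor Cry1 were higher. Arntl had 1.77, 1.25, 1.52, 1.54 and 1.39 at day 12, against 0.58, 0.81, 0.20, -0.20 and -0.49 at day 7. The day 12 arrays were the tighter group and all lay above day 7 (1.31 ± 0.22, 2.49-fold, adjusted p = 0.0107). Cry1 had -2.85, -3.14, -3.17, -1.84 and -3.10 at day 12, against -3.97, -4.50, -4.35, -3.95 and -4.24 at day 7. The groups did not overlap (1.38 ± 0.30, adjusted p = 0.0396), but Cry1 was well above background on 1 of 5 day 7 arrays only, and its call held in 5 of 22 other settings, with a change of 0.44 under normexp background correction. Without day 12 replicate 4, its highest array, the change was 1.14 (adjusted p = 0.111), and it was also lost without each other single array except day 7 replicate 1, with adjusted p of 0.0505 to 0.105.

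None of the other clock genes was called, and 4 of them had an unadjusted p under 0.05. Of these, Ciart, a repressor with a strong daily rhythm, had -1.81 ± 0.44 (adjusted p = 0.0665) and was well above background on 1 of 5 day 12 arrays. The period genes Per1, Per2 and Per3 had -0.46 ± 0.24, -0.44 ± 0.28 and -0.75 ± 0.39 (adjusted p = 0.43, 0.527 and 0.423). Clock itself had 0.13 ± 0.16 and Cry2 0.04 ± 0.26. The list median was -0.07, with members called in both directions.

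The clock genes also varied at day 0. The 3 untreated arrays gave 3.22, 3.31 and 1.63 for Dbp and 1.96, 1.85 and 0.92 for Nr1d2, so the third array was the lowest for both. At day 12 against day 0, Dbp differed by -2.21 ± 0.52 (adjusted p = 0.031), Nr1d1 by -1.62 ± 0.31 (0.00802) and Nr1d2 by -1.07 ± 0.21 (0.0105), while Arntl differed by 0.18 ± 0.26 (0.846). No label states the hour at which the mice were killed, and its part in these changes was not tested. In the arrays labelled Card9-/-, day 12 minus day 7 was -0.67 ± 0.48 for Dbp, -0.30 ± 0.32 for Tef, -0.01 ± 0.19 for Nr1d2 and 0.72 ± 0.24 for Arntl, and none of these differed from the WT change at an adjusted p under 0.05 (smallest 0.264, for Nr1d2).

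**Figure D4:**
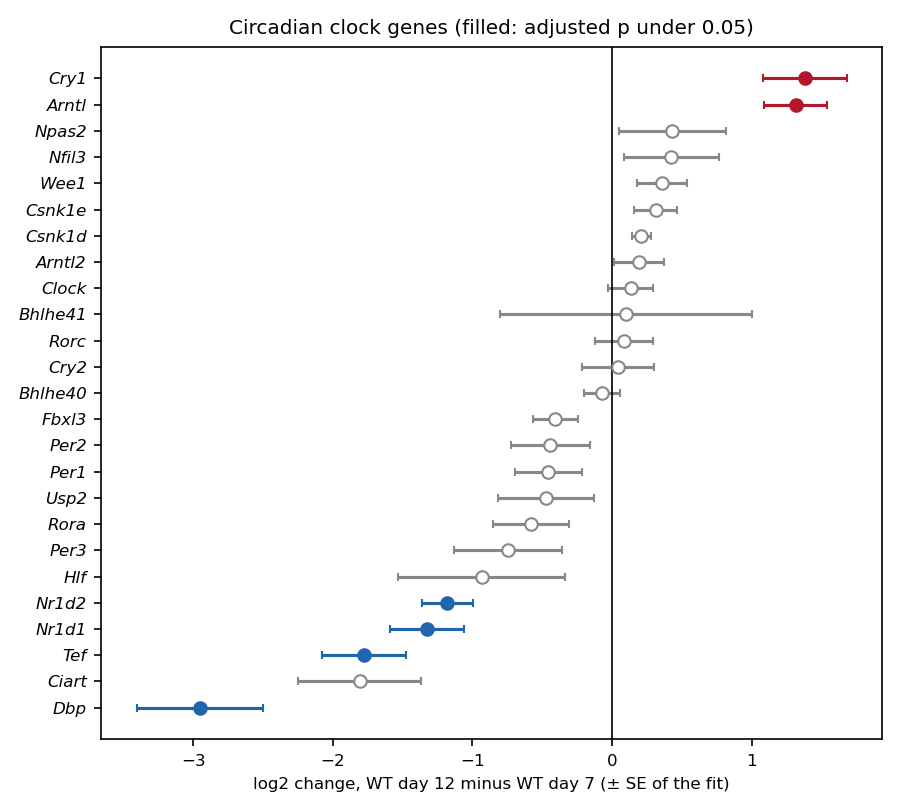
Log2 change, WT day 12 minus WT day 7, of the 25 tested clock genes with its SE (n = 5 arrays each). Filled points had an adjusted p under 0.05, from Dbp (-2.95) to Cry1 (1.38), and open points did not.

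The start regions of the called clock genes were searched for the letters that regulators of the clock bind, in RefSeq windows of the GRCm38.p6 build from 250 bases before to 50 after the transcript start. The E-box was searched as CACGTG, the D-box as TTATGTAA or TTACGTAA and the ROR/REV-ERB element as TAGGTCA or TGGGTCA, on both strands, and 7.15%, 1.06% and 6.45% of 32851 windows hold them. Cry1 and both Tef windows hold an E-box, beginning 60 bases before the start in Cry1 and 127 and 138 before it in Tef. Of the 2 Arntl windows, 1 holds a ROR/REV-ERB element 30 bases after its start, and the windows of Dbp, Nr1d1 and Nr1d2 hold none of the 3. The second Tef window and the Cry1 window are printed 5′ to 3′ for the 250 bases before the start, and for Arntl 30 bases around its match, with the match in capitals.
Tef, chr15:81811164-81811413, plus strand: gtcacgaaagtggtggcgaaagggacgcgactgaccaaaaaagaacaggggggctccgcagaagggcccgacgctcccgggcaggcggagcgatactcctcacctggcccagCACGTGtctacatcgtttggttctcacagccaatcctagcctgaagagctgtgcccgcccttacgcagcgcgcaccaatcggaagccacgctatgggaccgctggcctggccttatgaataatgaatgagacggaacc
Cry1, chr10:85185055-85185304, minus strand: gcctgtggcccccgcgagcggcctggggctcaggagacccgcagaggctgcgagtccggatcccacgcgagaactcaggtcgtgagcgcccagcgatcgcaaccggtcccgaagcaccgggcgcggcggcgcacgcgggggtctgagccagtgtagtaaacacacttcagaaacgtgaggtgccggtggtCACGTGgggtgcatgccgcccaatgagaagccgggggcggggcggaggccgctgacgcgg
Arntl, chr7:113207529-113207558, plus strand: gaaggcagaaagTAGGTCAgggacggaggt

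Zbtb16, a transcription factor that defines innate-like T cells and is induced strongly by glucocorticoids, fell by 2.81 ± 0.37 (adjusted p = 0.00266). Its signals were -1.54, -3.43, -2.79, -2.77 and -1.52 at day 12, against 0.85, -0.03, 0.86, -0.02 and 0.31 at day 7. The groups were far apart, and Zbtb16, probed at mm9 chromosome 9, 48462419 to 48462478, was 7.00-fold lower. At day 0 it averaged -1.83 ± 0.71 (SD, n = 3), and day 7 minus day 0 was 2.23 ± 0.43 (SE, adjusted p = 0.0049), in a comparison that called 4.32% of all genes. Of 16 glucocorticoid response genes Zbtb16 was the 1 called, where 0.486% of all genes were called, and the list median was -0.13. At an unadjusted p under 0.05, 4 of the 16 were lower and 1 was higher, against 4.38% and 8.73% of all genes. Fkbp5, an immunophilin that tempers the glucocorticoid receptor, had -0.77 ± 0.22 (adjusted p = 0.115). Hsd11b1, which regenerates active glucocorticoid, had -1.26 ± 0.31 (0.0656), with no overlap between arrays. The kinase gene Sgk1 had 1.05 ± 0.38 (0.231), and Tsc22d3 and Dusp1 had 0.36 ± 0.23 and 0.03 ± 0.24.

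All 20 tested goblet cell genes had positive changes, with a median of 0.38, and 10 were higher at an unadjusted p under 0.05. Of all genes, 51.4% had positive changes and 8.73% were higher at that threshold. The 1 called member was Tpsg1, a tryptase known from mast cells, where 0.365% of all genes were called higher. Tpsg1 had 5.41, 5.07, 5.30, 5.22 and 5.39 at day 12, against 4.84, 4.64, 4.23, 4.41 and 4.25 at day 7. Its groups did not overlap, and the change was small but even across arrays (0.81 ± 0.13, 1.75-fold, adjusted p = 0.00845). The goblet fate factors Atoh1 and Spdef had 0.64 ± 0.17 (adjusted p = 0.0984) and 0.57 ± 0.21 (0.232), with no overlap between arrays for either. The stress sensor Ern2 of mucous cells had 0.51 ± 0.12 (0.0647). Muc2, the main mucin of the colon, had 0.15 ± 0.17 and Tff3, a peptide secreted with it, 0.13 ± 0.20, each change smaller than its SE.

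Clca4a, a regulator of chloride channels, was the 1 called gene of 27 colonocyte transport genes, where 0.486% of all genes were called. Its signals were 5.10, 5.57, 4.79, 5.72 and 5.16 at day 12, against 2.86, 4.17, 4.57, 4.03 and 3.71 at day 7. The nearest arrays of both days differed by little, and replicate 1 of day 7 was the lowest (1.40 ± 0.28, adjusted p = 0.0304). The call was lost without day 12 replicate 1, 2, 4 or 5 (adjusted p = 0.0523 to 0.0949). Without both day 12 replicate 5 and day 7 replicate 1 the change was 1.17 (0.0602). The list median was -0.17, with 16 of 27 changes negative, and 4 genes were higher at an unadjusted p under 0.05, against 8.73% of all genes. The sodium channel subunit Scnn1b had 0.79 ± 0.26 (0.179) and the guanylin gene Guca2a, whose peptide drives fluid secretion, 0.51 ± 0.23 (0.339).

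The lactate exporter Slc16a3 (MCT4) was 3.09-fold higher. It had 2.93, 3.62, 2.96, 2.93 and 3.08 at day 12, against 1.16, 1.19, 2.06, 2.18 and 0.78 at day 7. All day 12 arrays were above day 7 (1.63 ± 0.26, adjusted p = 0.00796), and a second probe gave 1.62. The first lies at mm9 chromosome 11, 120820030 to 120820089. At day 0 it averaged 1.13 ± 0.26 (SD, n = 3), so day 12 exceeded both earlier days (day 12 minus day 0, 1.98 ± 0.30, adjusted p = 0.00126). Of 29 monocarboxylate transport, glycolysis and hypoxia genes, 24 had positive changes, with a median of 0.16, and 8 were higher at an unadjusted p under 0.05, against 51.4% and 8.73% of all genes. Slc16a6 had 0.46 ± 0.10 (adjusted p = 0.0507), and the glycolytic genes Pgam1, Tpi1 and Pgk1 had 0.34 ± 0.08, 0.29 ± 0.08 and 0.27 ± 0.08 (0.0658, 0.129 and 0.129).

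Lce3b, a protein of the cornified envelope of skin, had the largest rise among the called genes. Its signals were -1.56, -0.94, -1.39, -0.84 and -0.81 at day 12, against -6.19, -4.24, -4.32, -4.46 and -4.80 at day 7. The groups were far apart (3.69 ± 0.64, adjusted p = 0.013), but 3 of 5 day 7 arrays were well above background and the size depends on the background, with 1.78 under normexp correction and 2.29 in the series value table. Lce3c and Lce3a, neighbours of Lce3b on chromosome 3, were not well above background on any day 7 array, and were at least 3.21-fold and 1.06-fold higher at day 12 (adjusted p = 0.0594 and 0.0673). Lce3a was well above background on 3 of the day 12 arrays and has no value on day 12 replicate 1, which its fit dropped. Of 13 cornified envelope genes 7 were higher at an unadjusted p under 0.05, against 8.73% of all genes, and the median was 0.61. Sprr1a and Sprr2a1, cross-linked precursors that gut epithelium also makes under stress, had 1.03 ± 0.40 (0.265) and 0.96 ± 0.25 (0.0862). Of the envelope proteins of mature skin, loricrin (Lor) had -0.66 ± 0.34 and involucrin (Ivl) 0.03 ± 0.81. The 11 squamous epithelium genes had a median of -0.11 with 0 called, and list means of -1.91 to -1.0 at day 12 and -2.02 to -0.58 at day 7. In arrays labelled Card9-/- the Lce3b change was -0.23 ± 0.68, and its difference from WT was 3.92 ± 0.94 (adjusted p = 0.297).

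Oasl1, an interferon-induced protein that limits translation of Irf7, had the smallest p of all genes. Its signals were 4.40, 4.42, 4.42, 4.93 and 4.31 at day 12, against 3.34, 3.30, 3.71, 3.55 and 3.05 at day 7. Every day 12 array lay above every day 7 array, and the gene, probed at mm9 chromosome 5, 115387861 to 115387920, was 2.15-fold higher (1.11 ± 0.13, adjusted p = 0.00117). It was the 1 called gene of 33 interferon response genes, where 0.365% of all genes were called higher. The list had a median of 0.05 and 5 members higher at an unadjusted p under 0.05, against 8.73% of all genes. Ifit1, which binds foreign RNA, had 0.59, 0.65, 1.06, 1.33 and 0.36 at day 12, against -0.02, -0.30, 0.75, 0.21 and -0.59 at day 7. The groups overlapped, through day 7 replicate 3 (0.79 ± 0.23, adjusted p = 0.132). Apol9a, an apolipoprotein L gene that interferon induces in mice, was called (1.29 ± 0.25, adjusted p = 0.0276), with 2.29 to 3.41 at day 12 and 1.26 to 2.18 at day 7, but near-identical Apol9b (1.26 ± 0.27, 0.0347) may share its signal. The Apol9a call was lost without day 12 replicate 1, 3 or 4 (0.0835, 0.0698 and 0.0839).

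Oasl1 and Ifit1 were the 2 genes whose change differed between WT and arrays labelled Card9-/-, 0.00784% of those tested, with 1965 at an unadjusted p under 0.05. In the Card9-/- arrays Ifit1 was lower at day 12, with -0.90, -1.41, -1.40, -0.56 and -0.81, against 0.59, 0.61, 0.11 and 0.49 at day 7 (-1.47 ± 0.25, adjusted p = 0.00211), in a comparison that called 7.69% of all genes. Oasl1 averaged 3.62 ± 0.14 (n = 5) at day 12 and 3.81 ± 0.19 (n = 4) at day 7 (SD, change -0.19 ± 0.14). The difference of the WT change from the Card9-/- change was 2.26 ± 0.34 for Ifit1 and 1.29 ± 0.19 for Oasl1, each with an adjusted p of 0.0203. The median over the interferon list of the same difference was 1.57, against -0.04 over all genes. Both calls were lost without WT day 12 replicate 3 or WT day 7 replicate 1 or 2 (adjusted p = 0.0656, 0.0559 and 0.0646) and with normexp background correction (0.114 for Oasl1 and 0.0546 for Ifit1) or quantile normalization (0.0508 for both). Without WT day 7 replicate 3 the number of genes called was 62. Arrays labelled Card9-/- were not left out in turn, so the dependence of both calls on them was not tested. Interferon list means ran from 1.09 to 1.75 in the WT day 12 arrays and from 0.26 to 2.35 in the WT day 7 arrays. Pancreas acinar genes had a median change of 1.86 in WT and -3.94 in Card9-/- arrays, and their part in the difference was not tested. The direction of this difference holds for the labels, which the Card9 probe goes against.

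The Ifit1 start region holds 2 matches to the interferon-stimulated response element, searched on both strands as GAAA, any 2 bases and GAAA, which 3.44% of all windows hold. They begin 104 and 85 bases before the start and stand in capitals in the 250 bases printed 5′ to 3′ from the GRCm38.p6 RefSeq window. The Oasl1 window holds none.
Ifit1, chr19:34640639-34640888, plus strand: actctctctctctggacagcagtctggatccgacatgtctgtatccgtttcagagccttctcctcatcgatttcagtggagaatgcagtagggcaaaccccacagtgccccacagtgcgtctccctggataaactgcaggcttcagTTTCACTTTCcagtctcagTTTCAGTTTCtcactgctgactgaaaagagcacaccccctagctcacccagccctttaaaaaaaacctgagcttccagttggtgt

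**Figure D5:**
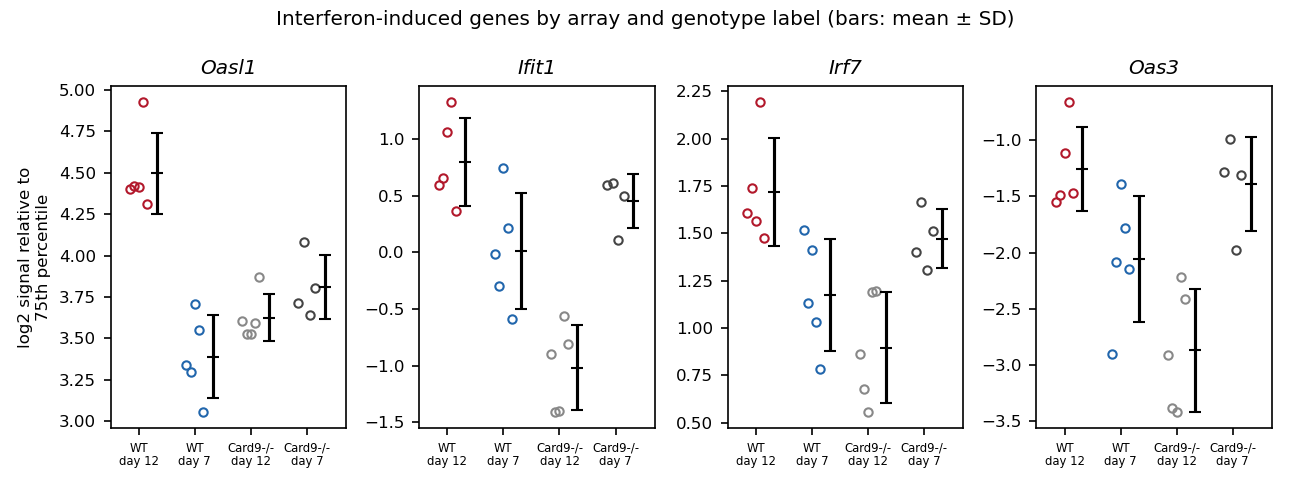
Relative log2 signal of 4 interferon-induced genes in WT day 12, WT day 7, Card9-/- day 12 and Card9-/- day 7 arrays (5, 5, 5 and 4 arrays). Circles are arrays and bars mean ± SD. Oasl1 lies between 4.31 and 4.93 in WT at day 12 and averages 3.62 in Card9-/- at day 12.

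Chat, the enzyme that makes acetylcholine in enteric neurons and tuft cells, fell. Its signals were -3.18, -2.94, -3.02, -2.84 and -3.15 at day 12, against -2.23, -2.61, -1.95, -1.84 and -1.02 at day 7. The groups did not overlap (-1.10 ± 0.21, adjusted p = 0.0273), and the call was lost without day 12 replicate 1, 3, 4 or 5 (0.0542 to 0.0836). It was also lost with normexp background correction, where the change was -0.66 (0.0907), and with quantile normalization (0.0571). Of 15 enteric neuron and glia genes, 14 had negative changes, with a median of -0.57, while 51.4% of all genes had positive ones. Among the 15, 5 were lower at an unadjusted p under 0.05, against 4.38% of all genes. The medians were -0.43 over 13 smooth muscle genes, -0.37 over 17 endothelial genes and -0.35 over 28 matrix and fibroblast genes, with 0 called in each list. These lists varied more at day 7, where smooth muscle list means ran from 0.83 to 3.48, than at day 12, where they ran from 1.61 to 2.35, and the part of muscle layers in the falls was not tested. The tuft cell list had a median of -0.23 over 19 genes.

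Other named falls were of genes known from mesenchyme, nerve and signalling. Adora1, the adenosine A1 receptor, had -2.90, -3.30, -3.41, -2.75 and -2.85 at day 12, against -1.66, -1.22, -1.27, -2.03 and -1.84 at day 7, with no overlap (-1.44 ± 0.29, adjusted p = 0.0304). Rasgef1a and Rasgef1c, exchange factors for Ras-like GTPases, fell by 1.33 ± 0.27 and 1.29 ± 0.27 (adjusted p = 0.0314 each), and the small GTPase Rasl12 by 1.03 ± 0.22 (0.0394). The synaptic adhesion gene Lrrtm1 (-2.19 ± 0.47), the matrix protein gene Adamtsl1 (-1.42 ± 0.28) and the mesenchymal transcription factor gene Osr1 (-1.38 ± 0.31) were dim, well above background on 1, 2 and 2 of the 5 day 12 arrays. With normexp background correction the changes of those 3 genes were -0.86, -0.63 and -0.55, none of them called. Adora1 (-0.90, adjusted p = 0.0682) and Rasgef1c (-0.66, 0.0516) also lost their calls there. Rasgef1a (-0.91) and Rasl12 (-0.69) were smaller there but still called (0.0444 each). Leaving out day 12 replicate 1 or 4 or day 7 replicate 3 ended the calls of all 7 genes (adjusted p = 0.051 to 0.121), and other single arrays ended some of them.

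Cpn1, Ly6g6c and Pmp22 were near their untreated levels at day 12 and below them at day 7. Cpn1, the catalytic chain of carboxypeptidase N, which trims kinins and anaphylatoxins, had 0.60, 0.48, 0.50, 1.20 and 0.64 at day 12, against 0.01, -2.28, -2.32, -0.87 and -1.60 at day 7. No day 7 array reached day 12 (2.09 ± 0.45, adjusted p = 0.0394), and the call was lost without any 1 of the day 12 arrays or without day 7 replicate 2, 3 or 5 (0.0652 to 0.111). At day 0 Cpn1 averaged 0.73 ± 0.10 (SD, n = 3). Ly6g6c, a lipid-anchored surface protein of the Ly6 family, had 1.35, 0.64, 1.40, 1.78 and 1.57 at day 12, against -0.24, -0.16, -0.22, -0.56 and -0.45 at day 7. The groups did not overlap (1.67 ± 0.25, adjusted p = 0.00672), and day 0 averaged 1.89 ± 0.34 (day 7 minus day 0, -2.21 ± 0.29, adjusted p = 0.0002). Pmp22, a membrane protein of myelin and of epithelial junctions, had 5.84, 5.23, 5.47, 5.52 and 5.48 at day 12, against 5.03, 4.49, 4.09, 4.10 and 3.79 at day 7. It did not overlap either (1.21 ± 0.20, adjusted p = 0.00845), and day 0 averaged 5.73 ± 0.08.

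Cd177, a surface glycoprotein best known from neutrophils, and Ceacam10, an adhesion protein of the CEA family, are probed next to each other on chromosome 7, at mm9 positions 25531261 to 25535362 and 25566203 to 25569495. Ceacam10 had 3.44, 2.79, 3.47, 3.06 and 3.32 at day 12, against 2.18, 2.14, 1.58, 1.54 and 2.09 at day 7 (1.31 ± 0.22, adjusted p = 0.0107). Cd177 had 3.27, 3.23, 3.70, 3.50 and 3.40 at day 12, against 1.21, 2.77, 1.44, 2.23 and 2.94 at day 7 (1.30 ± 0.25, adjusted p = 0.0251). Neither gene overlapped between days, and in Card9-/- arrays the same changes were 1.76 ± 0.23 and 1.89 ± 0.26. The Cd177 call was lost without day 12 replicate 1, 3 or 4 or day 7 replicate 3 (0.0551 to 0.0683). Eya2, a transcriptional coactivator and phosphatase, was higher at day 12 (0.90 ± 0.23, SD) than at day 7 (-0.49 ± 0.58), by 1.39 ± 0.31 (adjusted p = 0.0437), and its day 0 mean was -0.73. The Eya2 call held in 6 of 22 other settings and was lost without any single array except day 7 replicate 1 (0.0524 to 0.118).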

How the data were processed

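Total RNA of colon samples (100 ng per mouse, RIN above 7) was hybridised to 1-colour Agilent arrays, 1 mouse per array. Per the file headers, the authors deposited scanner output of Agilent Feature Extraction 10.7.3.1, and the processed signal used here is an intensity on a linear scale, background-subtracted and detrended within the array by that software, with surrogate values for spots not above background. The deposited series value table holds log2 values of the same arrays, made comparable between arrays by a method that no header or label states. From the intensities, control spots and outlier spots were removed, spots of 1 probe were averaged, and log2 of the signal minus the array's 75th percentile was taken. Probes well above background on at least 3 of 25 arrays were kept (36356 probes), and the brightest on average was used for 7344 genes with several probes, which left 25500 genes. Names come from RefSeq accessions where matched (27656 probes).

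Limma 3.58.1 in R 4.3.3 fitted 6 groups over 25 arrays, without a block, and every adjusted p is from its moderated test with Benjamini-Hochberg adjustment over all genes, called at 0.05. Named genes are the 15 largest rises and 15 largest falls among called genes with a gene symbol (no clone, predicted-gene or accession name), no overlap of arrays between days and a signal that exceeds background in all 5 arrays of 1 day or both, every called member of a list, up to 4 members of each described list by smallest p, and called genotype differences. Other genes named in the text were chosen after their values were seen. The groups, gene lists and tests were chosen with earlier results of these data known. Replicates are separate mice, and the number of arrays limits the precision. The design names 5 mice at day 7 in Card9-/-, of which 4 are used and 1 was not analysed here. Alternatives covered background correction, scaling, the probe filter, probe choice, slide and replicate blocks, fewer arrays and a Hox covariate. Each WT day 12 and WT day 7 array was also left out in turn, but no day 0 or Card9-/- array was.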

Additional observations from a re-analysis of the deposited data

Results flagged for a closer look

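In 8 of 82 groups of 5 arrays examined, 1 array lay far from the other 4. By chance the rule picks about 1 in 20 where groups are independent and unselected. These groups share arrays, and most of the genes were picked from these data, so that rate cannot be set against the count. Day 12 replicate 4 was the high array for Cpn1 (1.20, others 0.48 to 0.64), Cry1 (-1.84, others -3.17 to -2.85) and Oasl1 (4.93, others 4.31 to 4.42). Day 12 replicate 2 was high for Slc16a3 (3.62, others 2.93 to 3.08), and day 12 replicate 1 was low for Rasgef1c (-4.68, others -3.66 to -3.25). Day 12 replicate 5 had the highest mean over mast cell genes, at -1.06 (others -1.60 to -1.46). Day 7 replicate 1 was low for Lce3b (-6.19, others -4.80 to -4.24), and day 7 replicate 5 was high in the mean of squamous epithelium genes (-0.58, others -2.02 to -1.61).

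The change from day 7 to day 12 differed between WT arrays and arrays labelled Card9-/- for Oasl1, by 1.29, and for Ifit1, by 2.26 (interaction term in limma, adjusted p = 0.0203 each).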

How the results depend on the processing

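The count of 124 genes (93 higher, 31 lower) and the count of 2 genotype differences depended on the setting. Calls numbered 59 (45 higher, 14 lower) with quantile normalization, 47 (37 and 10) with no filter on dim probes, 220 (174 and 46) with probes well above background on 13 arrays, and 284 (222 and 62) with the proximal Hox mean as a covariate. They numbered 19 (14 and 5) with the WT arrays of 3 days and 0 (0 and 0) with the 10 arrays alone, where limma gave 2574 genes at an unadjusted p under 0.05. With normexp correction 18 genes fell, and with the slide as a block 14 fell. Genotype differences numbered 0 with normexp and 0 with quantile normalization, 11 with the 13-array filter, 3 with the series value table and 4 without day 12 replicate 5 and day 7 replicate 1. With the replicate block 80 genes were called (55 and 25), with 0 genotype differences (adjusted p = 0.0529 for both genes). Same-numbered arrays did not share deviations in every pair (correlations 0.0622, 0.0539, 0.177, 0.355 and 0.682, own number highest in 2 of 5), so the numbers are not read as a pairing. Leaving out 1 WT day 12 or WT day 7 array gave 28 to 227 genes, 21 to 170 higher, 7 to 59 lower, and 0 to 62 genotype differences. Normexp gave adjusted p of 0.114 (Oasl1, 1.31) and 0.0546 (Ifit1, 1.96) for the genotype difference, and quantile normalization 0.0508 for both (1.32 and 2.23). Of the 135 named genes, 2 turned sign in 1 setting each, Slc4a1 (0.0055, series value table) and Hbb-b1 (-0.063 without day 7 replicate 5, and from that value to 0.753 over the fits with 1 array left out), both uncalled. None of the 30 largest changes turned sign in any of the 22 settings. Apart from changes that follow from fewer arrays or fewer genes tested, the cause was not tested. Dim probes, such as those of Lrrtm1, Osr1 and Cry1, are limited by signal over background.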

Other observations

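Further called genes were chosen after their values were seen. Kng1, the precursor of bradykinin, fell by 1.66 ± 0.35 on the log2 scale at day 12 (SE, adjusted p = 0.0337). Among rises, the membrane mucin gene Muc4 had 0.92 ± 0.19 (0.0304), the basement membrane laminin chain gene Lama3 0.76 ± 0.17 (0.0423) and the efflux transporter gene Abcg2 0.72 ± 0.16 (0.0394). Il1f6, an interleukin-1 family cytokine, was well above background on 3 of 5 day 12 arrays and not on any day 7 array. It was at least 1.15-fold higher at day 12 (0.0394).

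In the lists that follow, 0 genes were called. Of 22 cholesterol synthesis genes 20 had positive changes, with a median of 0.28, and 11 were higher at an unadjusted p under 0.05, against 8.73% of all genes. Sqle, the squalene epoxidase of that pathway, had 0.52 ± 0.13 (adjusted p = 0.0665), with no overlap between days. Of 18 B and plasma cell genes 16 had positive changes, where 51.4% of all genes did, with a median of 0.88, and Mzb1, a chaperone of antibody secretion, had 1.64 ± 0.50 (0.144). Of 20 mitosis genes 19 had positive changes, with a median of 0.41 and 0 at an unadjusted p under 0.05.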
